A study of Mus musculus with 18 samples.

Results

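The mRNAs of 10 mouse genes for epithelial cell adhesion and cell junctions, Epcam, Cdh17, Cdh1, Cldn3, Cldn7, Cldn15, Ctnnb1, Ctnna1, Lgals4 and Ceacam1, were examined for 5-methylcytosine (m5C) sites. The 10 genes, of 21013 annotated coding genes, were selected on the m5C sites listed for them in these data and named with those results known, so their numbers of sites are a description and were not tested. A site was counted for a gene when it lay in an exon, on the same strand, of the gene's RefSeq transcripts on mm10. The 10 mRNAs held 255 of the 18059 mRNA sites found in the 9 libraries together, out of 25890 sites of any kind.

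RNA was labelled as that of primary cortical neurons of C57BL/6 mice taken at fetal day 18. Neurons of the control group were left untreated, and those of the OGD/R 1.5 h and OGD/R 3 h groups were deprived of oxygen and glucose for 1.5 h or 3 h and then returned to normal medium and incubation for 24 h. All 3 groups shared the strain, the age and the culture, and how many animals or cultures stood behind a group is not given in the sources used here. Each group had 3 replicate libraries, made from RNA whose rRNA had been removed and then converted with bisulfite, a treatment that turns unmethylated cytosine into uracil and leaves m5C as cytosine. The 9 mock libraries without bisulfite were not analysed here.

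Epithelial cells are held together by tight junctions and adherens junctions. Claudins are the membrane proteins that form the tight junction seal, and they decide which ions and solutes pass between cells. In the adherens junction, cadherins of neighbouring cells bind one another in the presence of calcium, β-catenin holds the cadherin tail, and α-catenin links β-catenin to actin. EPCAM is an adhesion protein of epithelia that binds claudin 7, galectin 4 is a sugar-binding protein of the gut epithelium, and CEACAM1 is an adhesion receptor of the immunoglobulin family. Catenins are also made in neurons and most other cells, whereas EPCAM, cadherin 17 and galectin 4 are best known from the gut.

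The sites listed for marker genes did not go with the labelled cell type. The gene lists used here were chosen with earlier results of these data known, so their counts are a description and were not tested. The paper reports that its cultured neurons were identified by β-III tubulin staining, with GFAP staining to look for astrocytes. None of 18 neuron markers and none of 15 neural adhesion genes carried a site in any library. Over the 9 libraries together 16 of 16 markers of intestinal epithelium did, against 12.4% of all annotated coding genes. By group, 12 of these markers had a site in control, 13 in OGD/R 1.5 h and 15 in OGD/R 3 h. Of the 21013 coding genes 1812, 1747 and 1450 did so, in the same order. Summed over the intestinal list, a library held 76 to 82 sites in control, 46 to 54 in OGD/R 1.5 h and 124 to 140 in OGD/R 3 h. Of 5 endothelial markers none had a site, and of 8 glial markers only Aldh1l1 did. Of 8 smooth muscle and fibroblast markers 6 carried a site, with 7 to 15, 8 to 10 and 10 to 13 sites per library in the same order of groups. The erythroid list held no site in control and OGD/R 1.5 h and 31 sites in every OGD/R 3 h library, all in Hbb-bs and Hbb-bt. In such bulk samples fewer cells of a type and less RNA per cell cannot be told apart, and the part of cell makeup in the results below was not tested. The libraries held 3800 to 4146 mRNA sites in control, 3508 to 3749 in OGD/R 1.5 h and 4733 to 5269 in OGD/R 3 h. Their read depth is unknown, and a library lists only the sites that passed limits on coverage and methylation level, so that a missing site shows neither that the mRNA was absent nor that the cytosine was unmethylated.

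Each site carries a score from 0 to 1000. In OGD/R 3 h replicates 1 and 2, where compared, it was 10 times the call score of the site caller, rounded down and capped. Because it rises with coverage and with level, the score gives neither of them alone. The sequences of the sites on which the results turn were read from the mm10 genome of RefSeq, on the strand of the mRNA and from 5′ to 3′. Each window holds 21 bases with the named site as the middle base, and capitals mark every cytosine listed as a site in at least 1 of the 9 libraries. The first 4 are sites with high scores or calls in many libraries in Epcam and Lgals4.
Epcam nt 1093, chr17:87643614-87643634: gctgatgtggCttactatttt
Epcam nt 445, chr17:87636798-87636818: cctcgccgctCcgcgcgcagc
Lgals4 nt 643, chr7:28835937-28835957: gaCaatggggCaaggaagaga
Lgals4 nt 992, chr7:28840875-28840895: tgtgggggCtCtgcagggggg

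The next windows show cytosines of 1 mRNA region that were listed in different groups. In Epcam the capitals of both windows include the pair at nt 466 and nt 467, and the window of nt 466 opens with the start codon. In the 5′ UTR of Cldn15 the site at nt 67 belongs to control, nt 90 to OGD/R 1.5 h and nt 106 to OGD/R 3 h. In the 5′ UTR of Cldn7 nt 130 belongs to OGD/R 3 h and nt 201, further along, to control.
Epcam nt 466, chr17:87636819-87636839: atggcgggtcCCcaggcCctc
Epcam nt 467, chr17:87636820-87636840: tggcgggtcCCcaggcCctcg
Cldn15 nt 67, chr5:136967925-136967945: acctgacCtcCagaagaCggc
Cldn15 nt 90, chr5:136967948-136967968: acaagaatcgCagctggatga
Cldn15 nt 106, chr5:136967964-136967984: gatgagcgctCcttcagcctt
Cldn7 nt 130, chr11:69965540-69965560: gcaccgcagCCtggggcccaa
Cldn7 nt 201, chr11:69965611-69965631: tgggtagtctCggagcacgCc

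The last pair shows the spacing of sites in the catenin Ctnnb1, where capitals stand close together, and a lone site in the cadherin Cdh17.
Ctnnb1 nt 171, chr9:120933560-120933580: gcaCggtgggCgCCgagCCgt
Cdh17 nt 328, chr4:11780115-11780135: gactttcgagCtaacgggaga

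The 10 mRNAs held 47, 41 and 33 sites in control replicates 1, 2 and 3. In OGD/R 1.5 h they held 36, 30 and 48 sites, and in OGD/R 3 h they held 101, 84 and 76. Every OGD/R 3 h library thus held more sites than any other library, while the control and OGD/R 1.5 h libraries overlapped. The mean per library was 87.0 in OGD/R 3 h against 40.3 in control, a ratio of 2.16, whereas the ratio for all mRNA sites was 1.25. Counting only sites called in all 3 libraries of a group, the ratio was 1.3 in the 10 genes and 1.42 over all mRNA sites, so the order turned round. With a score of at least 10 it was 1.47 and 1.35. For OGD/R 1.5 h against control the ratio was 0.942, beside 0.914 for all mRNA sites. As a share of the mRNA sites of a library, the 10 genes took 0.868% to 1.21% in control, 0.844% to 1.28% in OGD/R 1.5 h and 1.6% to 1.92% in OGD/R 3 h. The catenins Ctnnb1 and Ctnna1 made up 90.0% of the difference between OGD/R 3 h and control, namely 42.0 of 46.7 sites per library. The other 8 genes held 24 to 31 sites per library in control, 13 to 18 in OGD/R 1.5 h and 30 to 37 in OGD/R 3 h.

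**Figure D1:**
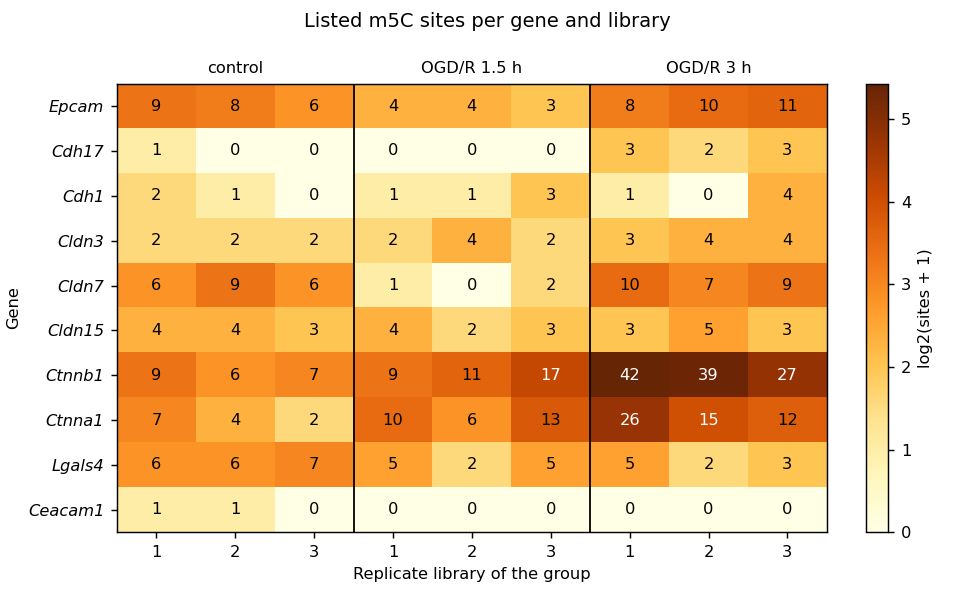
Number of listed m5C sites in each of the 10 genes (rows) in each of the 9 libraries (columns, 3 per group), with the number in the cell and its log2 after adding 1 as colour. Ctnnb1 reaches 27 to 42 sites in OGD/R 3 h, and Cldn7 has no site in 1 of the OGD/R 1.5 h libraries.

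Counted gene by gene, all 3 OGD/R 3 h libraries held more sites than any control library in 4 of the 10 genes, namely Cdh17, Cldn3, Ctnnb1 and Ctnna1, where 18.6% of 2267 genes with a site in either group did so. All 3 held fewer than any control library in 1 gene, Lgals4, with 18.7% of all genes. The OGD/R 1.5 h libraries all held more than control in 0 of the 10 genes, with 8.55% of 2328 genes. They all held fewer in 3 genes, namely Epcam, Cldn7 and Lgals4, with 15.1% of all genes. Between the OGD/R groups, all 3 h libraries held more than any 1.5 h library in 4 of 9 genes, Epcam, Cdh17, Cldn7 and Ctnnb1, with 19.9% of 2189 genes, and fewer in 0 genes, with 13.4%. These comparisons share libraries, and no count is read as particular to the 10 genes, since the genes were listed with results known.

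Epcam encodes the epithelial cell adhesion molecule. Its transcript NM_008532.2 lies on chr17:87635979-87651127, plus strand, with the coding sequence from nt 456 to nt 1403. It held 9, 8 and 6 sites in the control group, 4, 4 and 3 in OGD/R 1.5 h and 8, 10 and 11 in OGD/R 3 h. The OGD/R 1.5 h libraries lay below all others, and control and OGD/R 3 h overlapped. Together 24 cytosines were listed, which is 48.0 per 1000 cytosines of the transcript.

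The Epcam site at nt 1093, in the coding sequence of exon 7, was called in all 9 libraries. Its score was 662, 789 and 580 in the control group, 410, 474 and 745 in OGD/R 1.5 h and 555, 313 and 419 in OGD/R 3 h. All OGD/R 3 h scores lay below all control scores, with a mean difference of -0.68 on the log2(score + 1) scale. The OGD/R 1.5 h scores overlapped both other groups. Over all 250 sites called in every control and OGD/R 3 h library, 15.6% had lower scores in every OGD/R 3 h library, and 10.8% had higher ones. Of the 5 such sites in the 10 genes, 2 were lower in this sense and 1 was higher.

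The higher one was Epcam nt 445, 11 nt before the start codon, with scores of 5, 10 and 2 in control and 186, 70 and 36 in OGD/R 3 h. It was not listed in OGD/R 1.5 h. Just behind the start codon, nt 466 had scores of 7, 18 and 3 in control and 5, 10 and 9 in OGD/R 1.5 h. The next base, nt 467, had 35, 70 and 35 in OGD/R 3 h and was listed in no other group. Further sites called in all 3 libraries of 1 group and in no other group were nt 411 and nt 1409 in control, nt 482 in OGD/R 1.5 h and nt 372, nt 523 and nt 1155 in OGD/R 3 h. Scores at nt 1409, 6 nt after the coding sequence, were 395, 476 and 524 in control. At nt 1155 they were 100, 137 and 211 in OGD/R 3 h. High scores were thus also found at Epcam sites that only 1 group listed.

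**Figure D2:**
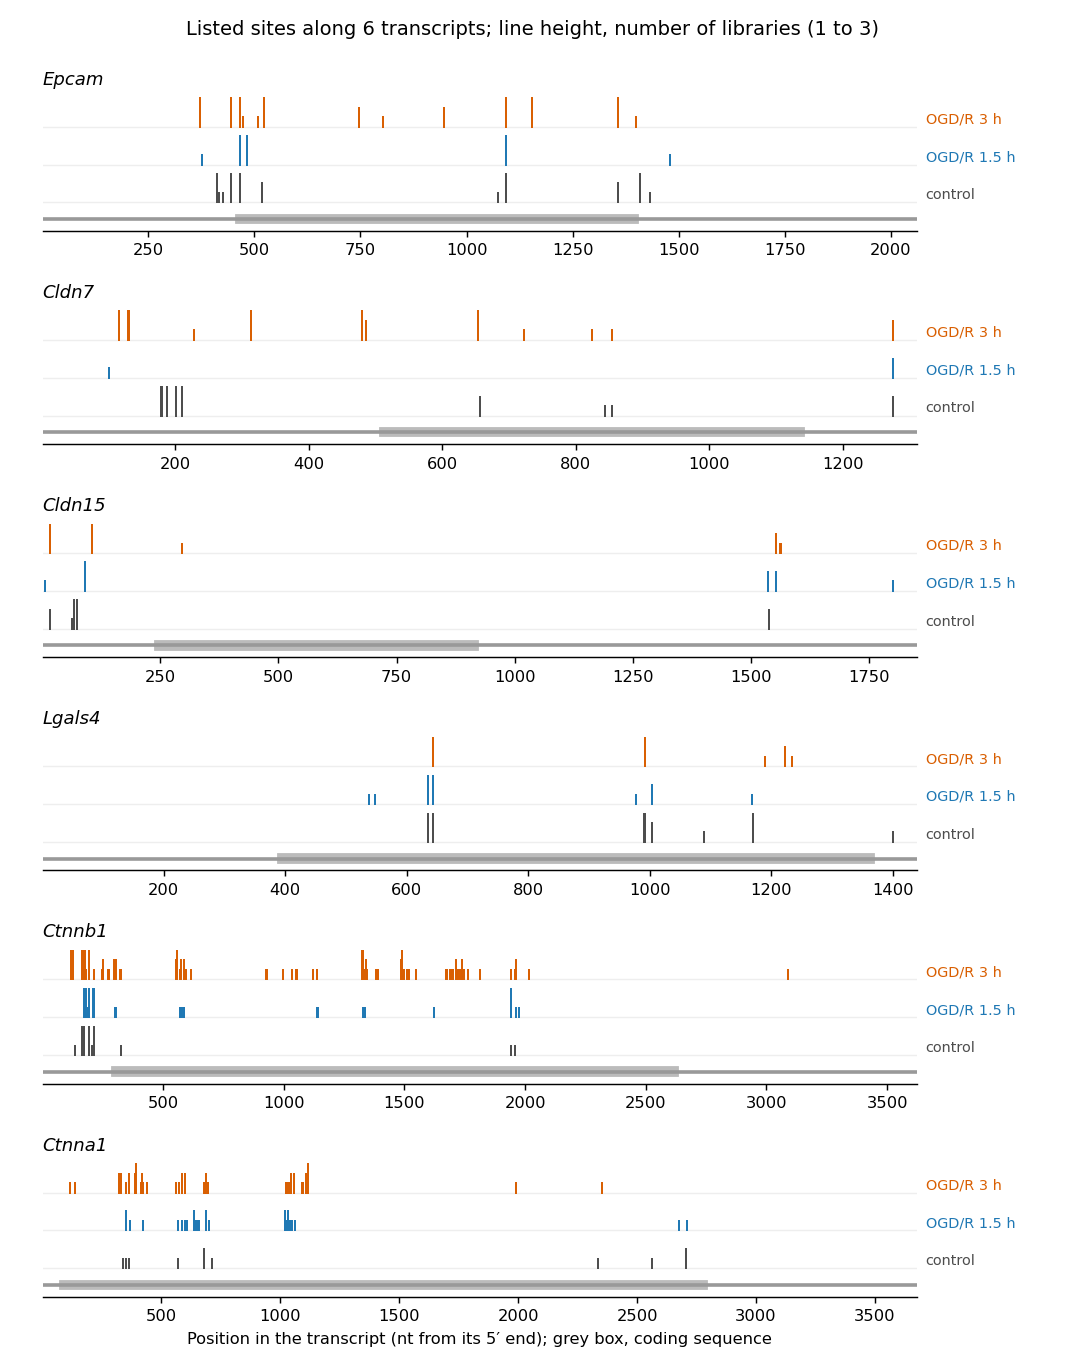
Positions of the listed sites along 6 transcripts in nt from the 5′ end, with the coding sequence as a grey box and 1 row of lines per group, where line height gives the number of libraries of the group, from 1 to 3. The row of OGD/R 3 h is dense along Ctnnb1 and Ctnna1, and in the 5′ UTR of Cldn7 and Cldn15 the groups stand at different positions.

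Cdh17 encodes cadherin 17, the liver-intestine cadherin (NM_019753.4, chr4:11758157-11817905, plus strand). It held 1 site in control replicate 1, none in the other control libraries, none in OGD/R 1.5 h and 3, 2 and 3 sites in OGD/R 3 h. Of its 7 sites 6 were listed in OGD/R 3 h alone, and 0 were called in all 3 libraries. Its sites called most often were nt 328 in exon 4, with scores of 94 and 51 in OGD/R 3 h replicates 2 and 3, and nt 2604, with 57 and 44 in replicates 1 and 2. Cdh17 scores ran from 25 to 113, so none of its few sites had a low score.

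Cdh1 encodes E-cadherin, the main cadherin of epithelial adherens junctions (NM_009864.3, chr8:106603350-106670247, plus strand). It held 2, 1 and 0 sites in the control group, 1, 1 and 3 in OGD/R 1.5 h and 1, 0 and 4 in OGD/R 3 h, and all groups overlapped. Its site at nt 2477, in the coding sequence of exon 15, scored 209 in control replicate 2 and 56 in OGD/R 1.5 h replicate 3. No Cdh1 site was called in all 3 libraries of a group. Both cadherin mRNAs were sparse, with 9.09 sites per 1000 cytosines in Cdh17 and 8.89 in Cdh1.

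Cldn3 encodes claudin 3, a sealing claudin of the gut (NM_009902.4, chr5:134986214-134987476, plus strand, 1 exon). It held 2, 2 and 2 sites in the control group, 2, 4 and 2 in OGD/R 1.5 h and 3, 4 and 4 in OGD/R 3 h. All OGD/R 3 h libraries lay above control, by 1 or 2 sites, and overlapped OGD/R 1.5 h. Its most frequent site, nt 50 in the 5′ UTR, scored 3, 2 and 3 in control and 20, 1 and 61 in OGD/R 1.5 h, and was not listed in OGD/R 3 h. In OGD/R 3 h no Cldn3 site lay in the 5′ UTR, and 6 of 7 lay in the stop codon region or the 3′ UTR. One of these, nt 972, scored 183 and 91 in OGD/R 3 h replicates 1 and 3 and 46 in OGD/R 1.5 h replicate 2.

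Cldn7 encodes claudin 7, the claudin bound by EPCAM (NM_016887.6, chr11:69965421-69967886, plus strand). It held 6, 9 and 6 sites in the control group, 1, 0 and 2 in OGD/R 1.5 h and 10, 7 and 9 in OGD/R 3 h. The OGD/R 1.5 h libraries lay far below both other groups, which overlapped. The mean per library was 7.0 in control, 1.0 in OGD/R 1.5 h and 8.67 in OGD/R 3 h.

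Control and OGD/R 3 h had similar numbers of Cldn7 sites but hardly shared any. Of 20 sites 7 were listed in control alone and 10 in OGD/R 3 h alone, and 2 were shared by these groups. In the 5′ UTR, nt 178, 180, 188, 201 and 210 were called in all 3 control libraries and in no other group. At nt 210 the control scores were 16, 36 and 13. Upstream of them nt 116, 129 and 130, and downstream nt 314 and 479, were called in all 3 OGD/R 3 h libraries and nowhere else. In the coding sequence nt 654 scored 27, 30 and 32 in OGD/R 3 h, and nt 656, close by, scored 9 and 21 in control replicates 1 and 2. The Cldn7 site shared by all 3 groups was nt 1275 in the 3′ UTR, in exon 4, which scored 111 and 52 in control replicates 2 and 3. There it scored 152 and 276 in OGD/R 1.5 h replicates 1 and 3, and 44 and 114 in OGD/R 3 h replicates 1 and 2.

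Cldn15 encodes claudin 15, a claudin of the intestine that lets cations pass (NM_021719.4, chr5:136967869-136975845, plus strand). It held 4, 4 and 3 sites in the control group, 4, 2 and 3 in OGD/R 1.5 h and 3, 5 and 3 in OGD/R 3 h. The numbers of all groups overlapped while the positions differed. Of its 14 sites 85.7% were listed in 1 group only, beside 80.8% of all mRNA sites. Control called nt 67, with scores of 28, 6 and 48, and nt 74, with 5, 11 and 5. OGD/R 1.5 h called nt 90, with 12, 11 and 128. OGD/R 3 h called nt 106, with 4, 11 and 20. Each of these 4 cytosines of the 5′ UTR was thus called in all libraries of 1 group and in none of the others, within 40 bases of one another. The Cldn15 site called most often, nt 16, scored 4 and 2 in control replicates 1 and 3 and 6, 6 and 1 in OGD/R 3 h. Over the 3 claudins together, the median score was 12.5.

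Ctnnb1 encodes β-catenin, which binds the cadherin tail and also carries the Wnt signal to the nucleus (NM_007614.3, chr9:120933400-120960507, plus strand, coding sequence nt 288 to nt 2633). It held 9, 6 and 7 sites in the control group, 9, 11 and 17 in OGD/R 1.5 h and 42, 39 and 27 in OGD/R 3 h. The OGD/R 3 h libraries all exceeded the rest, with a mean of 36.0 against 7.33 in control and 12.3 in OGD/R 1.5 h. Its 92 sites, or 107.0 per 1000 cytosines, ranked it 8th by number of sites among 2607 genes with a site.

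The Ctnnb1 sites of the groups differed in place as well as number. In control 10 of 12 sites lay in the 5′ UTR or the start codon region, while in OGD/R 3 h 55 of 76 lay in the coding sequence outside the codon regions. The longest row of sites with gaps of at most 10 nt held 14 sites, from nt 164 to nt 213. In this row nt 171 scored 28, 46 and 1 in control and 36, 7 and 36 in OGD/R 1.5 h, and was not listed in OGD/R 3 h. In the same row nt 164 scored 6, 14 and 1 in control and 26, 2 and 3 in OGD/R 3 h, and was not listed in OGD/R 1.5 h. In the coding sequence nt 559 was listed in OGD/R 3 h alone, with scores of 99, 14 and 39. Of the 76 OGD/R 3 h sites, 54 were called in 1 library and 10 in all 3. Among these 10, nt 120, 126, 164, 173, 178 and 195 lay in the 5′ UTR or the start codon region. The others, nt 559, 1326, 1330 and 1491, lay in the coding sequence.

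Ctnna1 encodes αE-catenin, the link from β-catenin to actin (NM_009818.1, chr18:35118912-35254775, plus strand). It held 7, 4 and 2 sites in the control group, 10, 6 and 13 in OGD/R 1.5 h and 26, 15 and 12 in OGD/R 3 h. The OGD/R 3 h libraries all exceeded control, while OGD/R 1.5 h overlapped both. Its 60 sites all lay in the coding sequence, 72.3 per 1000 cytosines, and 2 of them were called in all 3 libraries of a group. Its sites called most often, nt 350 and nt 688, were each called in 4 libraries. The first, in exon 3, scored 42 in control replicate 1, 85 and 51 in OGD/R 1.5 h replicates 1 and 3, and 6 in OGD/R 3 h replicate 3. A row of 10 sites ran from nt 1019 to nt 1060.

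Most catenin calls in the OGD/R groups had low scores. Of 262 calls, a call being 1 site in 1 library, 67.6% had a score under 10, against 49.4% of all mRNA calls. This share was 77.0% in OGD/R 3 h, beside 45.7% of all mRNA calls, and 60.6% in OGD/R 1.5 h, beside 54.0%. In control it was 37.1%, below the 49.8% of all mRNA calls. The median catenin score was 18 in control, 4 in OGD/R 1.5 h and 3 in OGD/R 3 h. Counting only calls with a score of at least 10, the catenins held 10, 8 and 4 sites in the control group, 4, 5 and 17 in OGD/R 1.5 h and 17, 11 and 9 in OGD/R 3 h. OGD/R 3 h then overlapped control at 9 and 10 sites. A further site of that library lay within 10 nt for 76.6% of Ctnnb1 calls, 50.5% of Ctnna1 calls and 6.35% of Epcam calls, against 38.9% to 51.7% of all mRNA sites of a library.

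**Figure D3:**
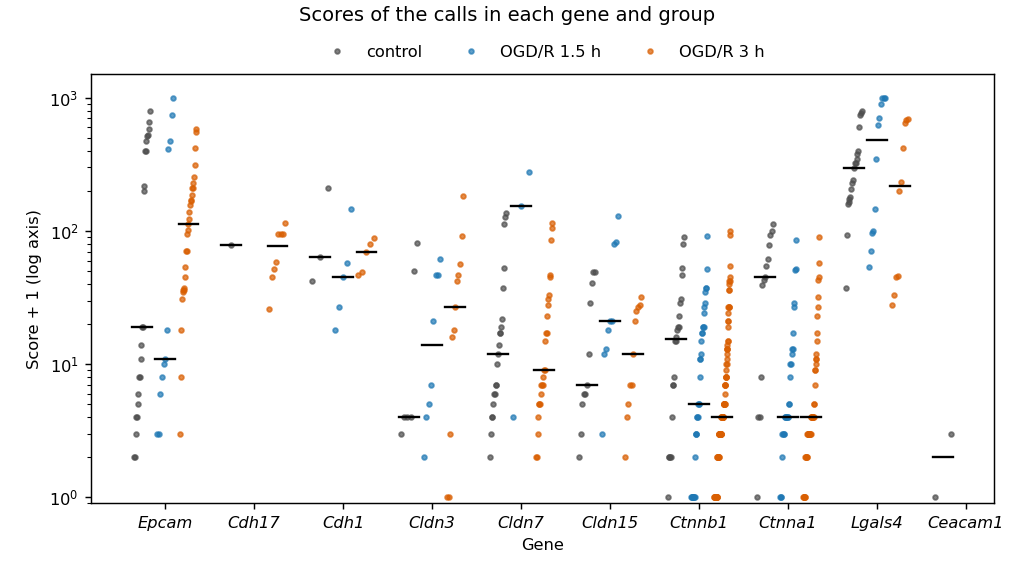
Score plus 1 on a log axis of every call (1 site in 1 library) in each gene and group, with the median of the group as a black bar. Calls in Ctnnb1 and Ctnna1 gather at low scores in OGD/R 3 h, with a median score of 3 in both, while the Lgals4 median is 298 in control, 485 in OGD/R 1.5 h and 216 in OGD/R 3 h.

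Lgals4 encodes galectin 4, which binds sugars on membrane proteins and lipids of enterocytes (NM_010706.2, chr7:28833794-28841703, plus strand, coding sequence nt 389 to nt 1369). It held 6, 6 and 7 sites in the control group, 5, 2 and 5 in OGD/R 1.5 h and 5, 2 and 3 in OGD/R 3 h. Both OGD/R groups lay below control. Its lowest score was 27, so no call of Lgals4 was under 10.

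The Lgals4 site at nt 643, in the coding sequence of exon 3, was the other site called in all 9 libraries. It scored 741, 795 and 763 in control, 1000 in each OGD/R 1.5 h library and 648, 686 and 691 in OGD/R 3 h. The groups did not overlap, with OGD/R 1.5 h at the cap of the score and OGD/R 3 h below control, with a difference of -0.18 on the log2(score + 1) scale. At nt 635 the scores were 380, 396 and 601 in control and 623, 905 and 708 in OGD/R 1.5 h, and OGD/R 3 h did not list it. The difference there was 0.71, and both nt 635 and nt 643 were higher in every OGD/R 1.5 h library than in control, as were 9.18% of 294 sites called in all of these libraries. No site of the 8 compared was lower in every OGD/R 1.5 h library, with 13.6% over all sites. At nt 992 the scores were 298, 206 and 229 in control and 417, 234 and 198 in OGD/R 3 h, which overlapped. At nt 1170 control scored 322, 349 and 324, and no other group listed the site. Between the OGD/R groups 2 sites could be compared, of which nt 643 was lower in every 3 h library, with 15.3% of 203 sites, and 0 were higher, with 12.8%.

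**Figure D4:**
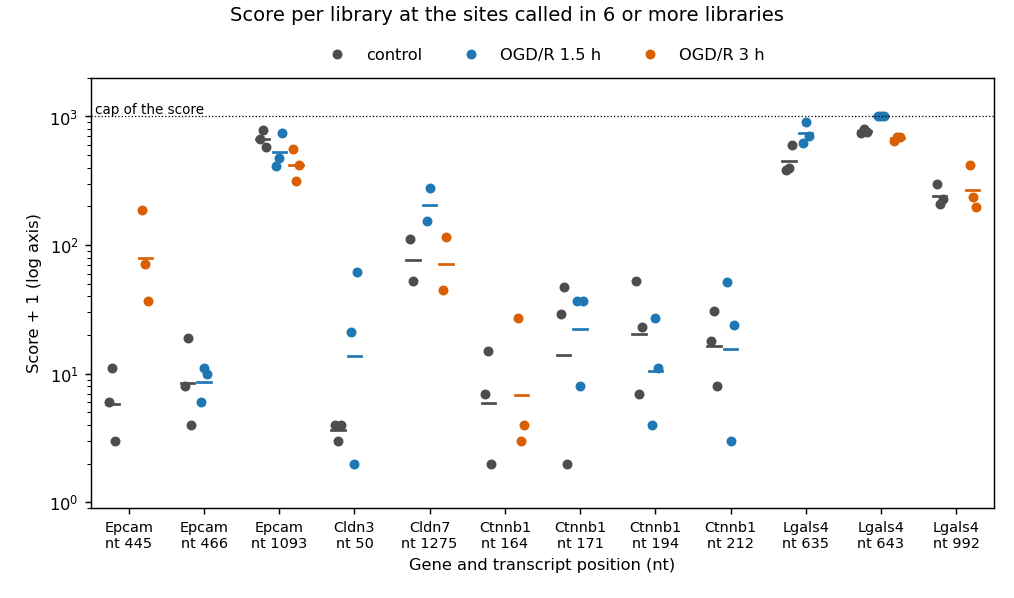
Score plus 1 on a log axis in each library (points) at the 12 sites called in 6 or more libraries, with the mean on the log scale as a bar and the cap of the score as a dotted line. At Lgals4 nt 643 the OGD/R 1.5 h libraries sit at the cap, above control, and the OGD/R 3 h libraries below control.

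Ceacam1 encodes an adhesion receptor of the immunoglobulin family (NM_001039185.1, chr7:25461702-25477625, minus strand). It carried 1 site, nt 50 before the start codon, with scores of 0 and 2 in control replicates 1 and 2 and none elsewhere. It is the only gene of the 10 whose transcript aligned elsewhere in the genome at 90% identity or more over at least 100 nt. The 6 such alignments reached 1635 nt, and the site lay under one of them, so its gene of origin is uncertain. By number of sites Ceacam1 ranked 1889th of 2607 genes.

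Set against length, the 10 mRNAs differed widely in their number of sites. Per 1000 cytosines, density fell in the order Ctnnb1 with 107.0, Ctnna1 with 72.3, Cldn7 with 55.4, Epcam with 48.0, Lgals4 with 36.1, Cldn3 with 28.6 and Cldn15 with 26.5. The last places were taken by Cdh17, Cdh1 and Ceacam1 with 9.09, 8.89 and 0.973. These values rest on the union of 9 libraries and have no spread of their own, so no order between neighbours was tested. Median scores followed another order, with 165.5 for Epcam, Lgals4 and Ceacam1 together, 60 for the cadherins, 12.5 for the claudins and 3 for the catenins. Gene by gene, the median was 298 for Lgals4, 77 for Cdh17, 70 for Epcam and 56 for Cdh1. It was 17 for Cldn3, 12 for Cldn15, 10 for Cldn7, 3 for Ctnnb1 and Ctnna1 and 1 for Ceacam1.

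By mRNA region, where the start and stop codon regions are the codon and 100 nt on either side, density was 60.5 sites per 1000 cytosines in the 5′ UTR and 58.0 in the start codon region. It was 44.3 in the coding sequence, 34.3 around the stop codon and 8.42 in the 3′ UTR. In control 27.7% to 42.4% of the sites of a library lay in the 5′ UTR, against 12.5% to 20.0% in OGD/R 1.5 h and 10.9% to 17.1% in OGD/R 3 h. The control libraries lay above all others, also without the catenins, where they held 29.0% to 41.7% against at most 23.1% in the OGD/R libraries. Over all mRNA sites the range was 8.95% to 10.3% in control, 6.54% to 7.67% in OGD/R 1.5 h and 8.1% to 9.37% in OGD/R 3 h. In the coding sequence the control libraries lay below all others, with 27.3% to 36.2% in control, 43.3% to 62.5% in OGD/R 1.5 h and 58.3% to 65.3% in OGD/R 3 h. Over all mRNA sites the coding share was 48.6% to 53.3% in control and 55.5% to 59.6% in OGD/R 1.5 h. In OGD/R 3 h that share was 43.4% to 48.9%, not above control. Among the listed genes without the catenins, the coding sequence held 29.0% to 35.5% in control, 30.8% to 44.4% in OGD/R 1.5 h and 33.3% to 42.4% in OGD/R 3 h, which overlapped. The start codon region of the 10 genes took 18.2% to 22.0%, 12.5% to 26.7% and 11.8% to 19.0% of the sites in the same order of groups, and all groups overlapped. Over all mRNA sites it took 26.0% to 29.8%, 21.5% to 24.8% and 29.0% to 33.6%.

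**Figure D5:**
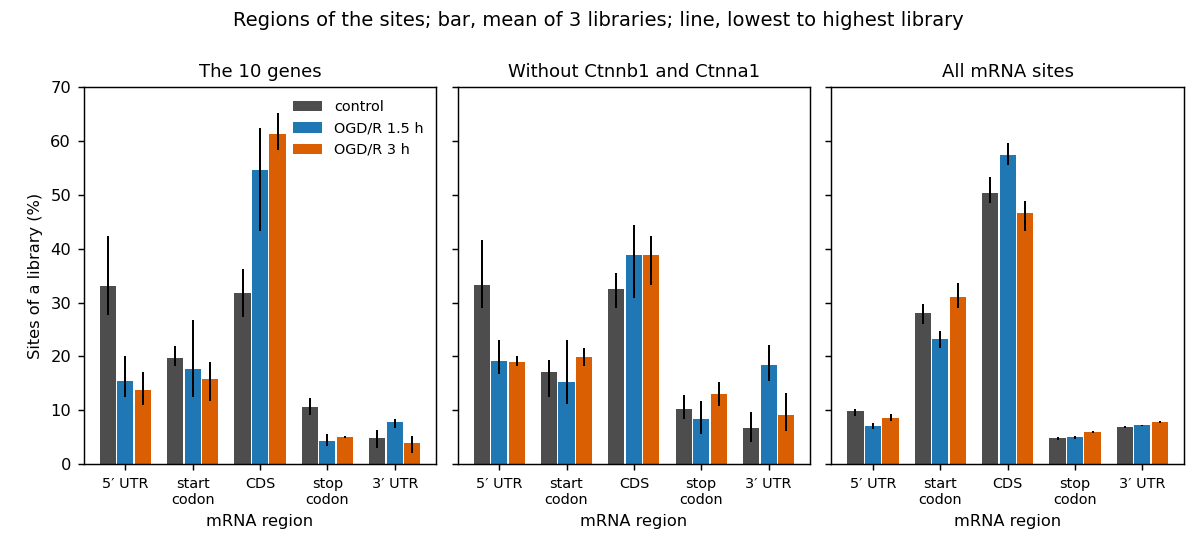
Percent of the sites of a library in each mRNA region for the 10 genes, for 8 of them without Ctnnb1 and Ctnna1, and for all mRNA sites, with bars for the mean of 3 libraries and lines from the lowest to the highest library. In the 10 genes the 5′ UTR share is highest in control and the coding share highest in OGD/R 3 h, and the coding shares overlap once the catenins are left out.

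Few sites were shared between the groups. Of the 255 sites 209, or 82.0%, were listed in 1 group only, close to the 80.8% of all mRNA sites. OGD/R 3 h alone listed 131 sites or 51.4%, beside 33.4% of all mRNA sites. OGD/R 1.5 h alone listed 42 or 16.5%, beside 24.1%, and control alone 36 or 14.1%, beside 23.4%. In all 3 groups 6 sites or 2.35% occurred, beside 3.62%. Of the 209 sites of 1 group 116, or 55.5%, had a site of another group within 30 nt, as did 56.4% of all mRNA sites of 1 group. Among genes with at least 10 such sites, this share was highest in Cldn15, with 10 of 12 sites, and in Ctnna1, with 37 of 49.

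Within a group, pairs of control libraries shared 25 to 30 sites of the 10 genes, or 53.2% to 78.8% of the sites of either library. Pairs of OGD/R 1.5 h libraries shared 37.5% to 60.0% and pairs of OGD/R 3 h libraries 38.6% to 57.1%. Pairs of 1 control with 1 OGD/R 3 h library shared 7.89% to 27.3%. Pairs of 1 control with 1 OGD/R 1.5 h library had 17.0% to 33.3% in common, and libraries of the 2 OGD/R groups 3.57% to 27.1%. Over all mRNA sites the shares were 44.4% to 65.9% within a group and 10.6% to 20.7% across groups, and both sets of sites thus had more in common within a group. Of 63 control sites 23, or 36.5%, were called in all 3 libraries, beside 26.5% of all mRNA sites. In OGD/R 1.5 h 13 of 77, or 16.9%, were so called, beside 18.0%, and in OGD/R 3 h 30 of 167, or 18.0%, beside 31.0%. Recurrence in OGD/R 3 h differed between the genes, with 7 of 13 sites in Epcam, 6 of 12 in Cldn7, 10 of 76 in Ctnnb1 and 2 of 38 in Ctnna1. Of the 255 sites 139 were called in 1 library only and 2 in all 9.

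The bases after the site set its context, CG, CHG or CHH, where H stands for A, C or T. The 255 sites were 18.4% CG, 37.6% CHG and 43.9% CHH. All cytosines of the 10 transcripts were 12.1% CG, 25.7% CHG and 62.2% CHH, and all mRNA sites were 22.4%, 37.9% and 39.7%. G made up 33.5% of the bases around the sites and 24.9% of those around every cytosine of the transcripts. The motif CNGGG, searched on the mRNA strand from the site itself, was found at 8 sites or 3.14%, close to the 3.27% of all mRNA sites and beside 1.9% of all cytosines of the transcripts. CTCCA was found at 4 sites or 1.57%, beside 0.421% of all mRNA sites and 0.819% of the cytosines.

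Sites were also found in other junction genes, where 12.4% of all annotated coding genes had a site in any library. Of 2267 genes with a site in control or OGD/R 3 h, 18.6% had more sites in every OGD/R 3 h library than in any control library. A further 18.7% had fewer in this sense. The genes named below are examples from the lists, which were chosen with earlier results of these data known. Of 14 further tight junction genes 7 had a site, with 11 to 16 sites per library in control, 11 to 13 in OGD/R 1.5 h and 4 to 12 in OGD/R 3 h. Lsr, for the receptor that organises tricellular junctions, held 5, 6 and 6 sites in the control group, 2, 2 and 3 in OGD/R 1.5 h and none in OGD/R 3 h. Tjp1, for the scaffold ZO-1, held 3, 5 and 8 sites in the control group, 5, 7 and 4 in OGD/R 1.5 h and 10, 5 and 3 in OGD/R 3 h, with all groups overlapping. Of 11 further adherens junction and cadherin family genes 7 had a site, with 9 to 14 sites per library in control, 9 to 13 in OGD/R 1.5 h and 18 to 25 in OGD/R 3 h. Cdhr2, for a cadherin of the brush border, held no site in control, 2 in OGD/R 1.5 h replicate 2 alone, and 7, 6 and 5 in OGD/R 3 h. Ctnnd1, for p120 catenin, held 5, 4 and 4 sites in control and 2, 2 and 1 in OGD/R 3 h. Its number thus fell where those of Ctnnb1 and Ctnna1 rose. Jup, for plakoglobin or γ-catenin, rose as they did, from no site in control to 2 in each OGD/R 3 h library. In OGD/R 1.5 h Jup held 1 site, in replicate 3. Of 7 desmosome genes Dsp, Dsg2 and Pkp3 had a site, with 4 to 7, 3 to 9 and 5 to 9 sites per library. The brush border cadherins Cdhr2 and Cdhr5 were left out of the adherens junction and cadherin family list after their values were seen. The rest of that list held 11, 8 and 9 sites in control and 10, 11 and 8 in OGD/R 3 h, so that the groups overlapped.

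Among 486 other genes with at least 10 sites, the number of sites per library most like the sum of the 10 genes was that of Snx9, with a Pearson r of 0.986 over the 9 libraries, followed by Nsd1 with 0.981, the mitochondrial ND2 with 0.969, Tubb5 with 0.961 and Actb with 0.959. The points share libraries and depth, and no p is given.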

How the data were processed

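Bisulfite RNA sequencing was analysed in 9 libraries, 3 per group. The authors trimmed reads with Cutadapt 1.9.3, used meRanGh for alignment to mm10 and meRanCall to find sites in each library, with a minimum level of 0.1 and a minimum coverage of 10. The labels say that bisulfite and mock data entered each deposited file, without saying how. The deposited value is a score without normalization for depth, and the files give no coverage, so library depth is unknown and no level or interval was derived. The score was compared with the call scores in the part of a supplementary table held. It matched at 1995 of 1997 sites of OGD/R 3 h replicate 1 and at 1309 of 1310 sites of replicate 2. The other libraries were not compared.

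Sites were placed with Python 3.11.15 and pandas 2.3.3 on the RefSeq transcript with the longest coding sequence, copies were sought with BLAST 2.17.0, and the genome was indexed with samtools 1.23.1. Positions count from 1. In the same supplement, which gives coverage for some sites of control and OGD/R 3 h, replicates differed by less than sampling noise, so the libraries of a group were counted as 1 sample. OGD/R 1.5 h was treated alike. No p-value was computed, and each library's value is given. Genes and lists were chosen with earlier results of these data known. Named sites were those called in all 9 libraries and the most frequent of each gene, with ties going to the highest summed score, and others named were chosen after their values were seen. Alternatives were a minimum recurrence or score, isolated sites, the share of mRNA sites, 50 nt around the codon, the mean score, and leaving out a gene or library. Leaving out both catenins, or Cdhr2 and Cdhr5, was chosen after seeing the data.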

Additional observations from a re-analysis of the deposited data

Results flagged for a closer look

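At Lgals4 nt 643 the OGD/R groups moved in opposite directions from control in every library. On the log2(score + 1) scale, OGD/R 1.5 h differed from control by 0.38 and OGD/R 3 h by -0.18. The difference between these effects was not tested. All 3 OGD/R 1.5 h libraries were at the cap of 1000, so 0.38 is a lower bound of the difference in uncapped score.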

How the results depend on the processing

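Of 136 alternative values, 114 stayed within a spread of the value as reported. For numbers of sites, scores and start codon shares this was the spread of the libraries. For recurrence and the share of sites in 1 group only it was a binomial interval over sites, which takes neighbouring sites as independent. For sites per library in OGD/R 3 h against control, a log2 ratio of 1.11, the value was 0.76 with sites called in at least 2 libraries of the group, 0.38 with all 3, 0.55 with a score of at least 10 and 0.22 without both catenins, and 0.98 to 1.23 with a library left out. For OGD/R 1.5 h against control it was -0.09, and -0.61, -0.82 and -0.84 with at least 2 libraries, all 3 and without both catenins, with -0.29 to 0.06 when a library was left out. Between the OGD/R groups it was 1.20, 0.75 as a share of the mRNA sites, and 1.05 to 1.40 with a library left out. The log2 ratio of median scores in OGD/R 3 h against control was -1.83, -0.36 with all 3 libraries, -0.69 for isolated sites and turned to 0.24 without both catenins. For OGD/R 1.5 h it was -1.24 and turned to 0.03 with all 3 libraries and 0.58 without both catenins. With a library left out these ranged from -2.24 to -1.39 and from -1.92 to -0.81. The share in the start codon region in OGD/R 3 h against control was -3.85 percentage points, and 0.782 with a score of at least 10, -10.1 for isolated sites, 0.35 without Epcam and 2.86 without both catenins. For OGD/R 1.5 h it was -2.08, 16.7 with all 3 libraries and -15.7 for isolated sites. With a library left out these ranged from -5.42 to -1.82 and from -6.57 to 0.517. Recurrence in OGD/R 3 h against control was -18.5 percentage points and turned to 4.13 for isolated sites, and in OGD/R 1.5 h it was -19.6, and -4.21 for isolated sites. With a library left out, computed over pairs of libraries, these ranged from -23 to -14.3 and from -26.1 to -17.4. The share of sites in 1 group only was 89.1% for isolated sites, and 80.7% to 85.6% with a library left out. The causes were not tested. The start codon shares were within the spread of the libraries in both comparisons as reported. No paired analysis was possible because no result comes from a test and the libraries of a group were counted as 1 sample. The unknown depth and the cap of the score limit all comparisons.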

Other observations

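Outside the exons, 2 positions in introns of Lgals4 were listed on the strand of the gene. The first had a score of 1 in control replicates 1 and 3 and 0 in OGD/R 1.5 h replicate 2, and the second had 0 in OGD/R 1.5 h replicate 2. The score cap of 1000 was reached in the 10 genes in 4 calls at 2 sites, of which 3 were Lgals4 nt 643 and 1 was in Epcam in OGD/R 1.5 h replicate 1.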
